A study of Homo sapiens with 6 samples.

Results

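The 43 genes described here encode enzymes that digest material inside the lysosome, proteins of its membrane and the proton pump that keeps it acidic. They were chosen by name from known lysosomal roles, with earlier results of these data known. All 43 were found among the 56303 rows of the count table, and all 43 were among the 20465 genes that passed the filter on low counts. By role they were 9 cathepsins, 10 other hydrolases, 2 carrier proteins of the lumen, 6 membrane proteins, the transcription factor TFEB and 15 subunits or accessory proteins of the vacuolar proton pump (V-ATPase). RNA was sequenced from A549 cells, an established line of human lung adenocarcinoma, in 2 groups of 3 libraries. Cells of the first group were transfected with a non-targeting siRNA (genotype HNRNPD NC in the labels), and those of the second with an siRNA against HNRNPD (HNRNPD si), which encodes the RNA-binding protein AUF1. The sources used here do not give the siRNA sequence, its dose, the time of harvest or whether libraries of a group came from separate cultures. The p-values therefore cover only differences between sequenced libraries, and these may be technical in part.

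Lysosomal enzymes are made in the endoplasmic reticulum, tagged with mannose 6-phosphate in the Golgi and carried to the lysosome by mannose 6-phosphate receptors, and many are activated there by acid pH and by proteolysis. The acid comes from the V-ATPase, in which a cytosolic V1 sector hydrolyses ATP and turns a V0 sector in the membrane that moves protons inward. Cathepsins are the proteases of this compartment, glycosidases and lipases break down its glycans and lipids, and LAMP proteins coat the inner face of its membrane. TFEB and its relatives TFE3 and MITF switch on many of these genes through an E-box-containing promoter element named CLEAR, and are held in the cytosol by the kinase mTORC1 when nutrients are plentiful.

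The TFEB element was looked for in the members' promoters, taken as 250 bases before to 50 bases after each start site in RefSeq (GRCh38.p14), where 29 of the 43 members matched by symbol. The letters searched were TCACGTGA, the core of the CLEAR element, and CACGTG, the E-box that lies inside it. Each reads the same on both strands. The CLEAR core was present in 6 of the 29 members (20.7%), against 321 of 27305 genes in the whole promoter table (1.18%) and 211 of 9172 protein-coding genes that were no members and had at least the mean level of the lowest member (2.3%). An E-box was present in 9 of the 29 (31%), against 8.77% and 12.9%. CLEAR is known as an element of lysosomal genes, and the members were chosen for lysosomal roles. These higher shares are therefore no independent result about the members, and the difference was not tested. The 6 promoters with a CLEAR core are shown because they are the searched members with an exact match to it. ATP6V0B, CTSD and NEU1 had an E-box without the core, and members without a matched promoter may hold either. Each is printed 5' to 3' from 100 bases before the start site through the first 20 transcribed bases, with E-boxes and CLEAR cores in capitals.
ATP6V1G1: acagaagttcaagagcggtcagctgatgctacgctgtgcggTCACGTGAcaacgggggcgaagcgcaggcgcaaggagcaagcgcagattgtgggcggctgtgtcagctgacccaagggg
GAA: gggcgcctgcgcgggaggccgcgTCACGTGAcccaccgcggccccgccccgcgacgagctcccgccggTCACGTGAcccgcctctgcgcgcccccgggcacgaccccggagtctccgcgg
ATP6V0D1: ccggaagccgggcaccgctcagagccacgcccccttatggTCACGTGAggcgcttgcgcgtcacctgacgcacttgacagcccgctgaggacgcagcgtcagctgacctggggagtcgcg
MCOLN1: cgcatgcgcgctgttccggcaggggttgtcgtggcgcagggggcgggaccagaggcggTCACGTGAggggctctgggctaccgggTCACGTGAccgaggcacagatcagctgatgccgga
LAMP1: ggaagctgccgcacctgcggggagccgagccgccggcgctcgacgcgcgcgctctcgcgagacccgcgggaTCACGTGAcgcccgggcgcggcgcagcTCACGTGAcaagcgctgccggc
CTSA: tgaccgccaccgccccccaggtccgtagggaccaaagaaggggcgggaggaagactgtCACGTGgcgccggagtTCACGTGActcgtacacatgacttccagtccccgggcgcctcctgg

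These windows lie at chr9:114587669-114587788, plus strand for ATP6V1G1, chr17:80101481-80101600, plus strand for GAA, chr16:67481138-67481257, minus strand for ATP6V0D1, chr19:7522524-7522643, plus strand for MCOLN1, chr13:113297139-113297258, plus strand for LAMP1 and chr20:45891235-45891354, plus strand for CTSA. GAA, MCOLN1 and LAMP1 held 2 cores each. Those of LAMP1 began 29 and 2 bases before the start site, those of MCOLN1 42 and 15 bases, and those of GAA 77 and 32 bases. The single cores of ATP6V1G1 and ATP6V0D1 began 59 and 60 bases before it, and that of CTSA 26 bases before it. The whole CTSA window, from base 45891235 on, lies downstream of the gene's first base in the count table, 45890144. A match describes the letters of the window and is no evidence of binding.

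The libraries held 37151094 to 43005090 counts. HNRNPD was at 965.4, 942.8 and 942.2 counts per 1000000 counts (CPM, with totals scaled by TMM) in the 3 control libraries and at 177, 162.7 and 167.5 CPM in the 3 HNRNPD siRNA libraries, a 5.62-fold fall and as labelled. Of all 20465 genes tested, 28.4% were called higher and 27.8% lower after HNRNPD siRNA at an edgeR adjusted p under 0.05, 56.1% in all. Of 9 markers of lung epithelium and A549, the keratins KRT7, KRT8 and KRT18 were abundant, as in an epithelial line, and the list summed to 5510 to 5990 CPM in control and 3520 to 3720 CPM in HNRNPD siRNA libraries. KRT7, KRT8, KRT18 and KRT19 fell 1.54- to 1.97-fold, EPCAM rose 1.26-fold and CDH1 was not called, whereas the alveolar markers SFTPB, SFTPC and NKX2-1 had at most 11 counts in any library. Macrophages are rich in lysosomes, and 8 of their markers summed to 2.11 to 3.09 CPM in control and 0.485 to 1.51 CPM in HNRNPD siRNA libraries, of which only CD14 passed the filter. The 7 fibroblast markers summed to 5.16 to 6.37 and 7.04 to 8.19 CPM, and the 5 endothelial markers to 0.329 to 0.488 and 0.376 to 0.618 CPM. None of these markers was at 0 in all 6 libraries, and their part in the results was not tested.

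Among the 43 members, 14 were called higher (32.6%), 15 lower (34.9%) and 14 were not called. These shares lie near those of all 20465 genes (28.4% and 27.8%) and of 11458 protein-coding genes with at least the lowest member's mean level (30.1% and 36.1%), so the number of called members is not a result about the lysosome. In all, 29 members were called (67.4%), against 56.1% and 66.2%. The median log2 fold change of the members was -0.11, against 0.01 for all genes tested and -0.05 for those protein-coding genes. Most called changes were small. A change of at least 1.5-fold was seen for 7 called members, of which LAMP3 rose and CTSS fell by more than 2-fold. A rise of at least 2-fold was called for 10.2% of all genes and 6.32% of the protein-coding genes, and such a fall for 6.09% and 5.05%. The groups did not overlap for 33 of 43 members (76.7%), against 62.6% of all genes and 71.5% of the protein-coding genes. Every HNRNPD siRNA library was above every control for 16 members, against 31.7% and 32.6% of those genes, and below for 17 members, against 30.9% and 39%. Of the 29 called members, 23 kept their call and direction under all 15 alternative analyses, and without control replicate 3 the members called fell to 11 higher and 13 lower. In bulk RNA, a lower level cannot be told apart from fewer cells that make it.

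**Figure D1:**
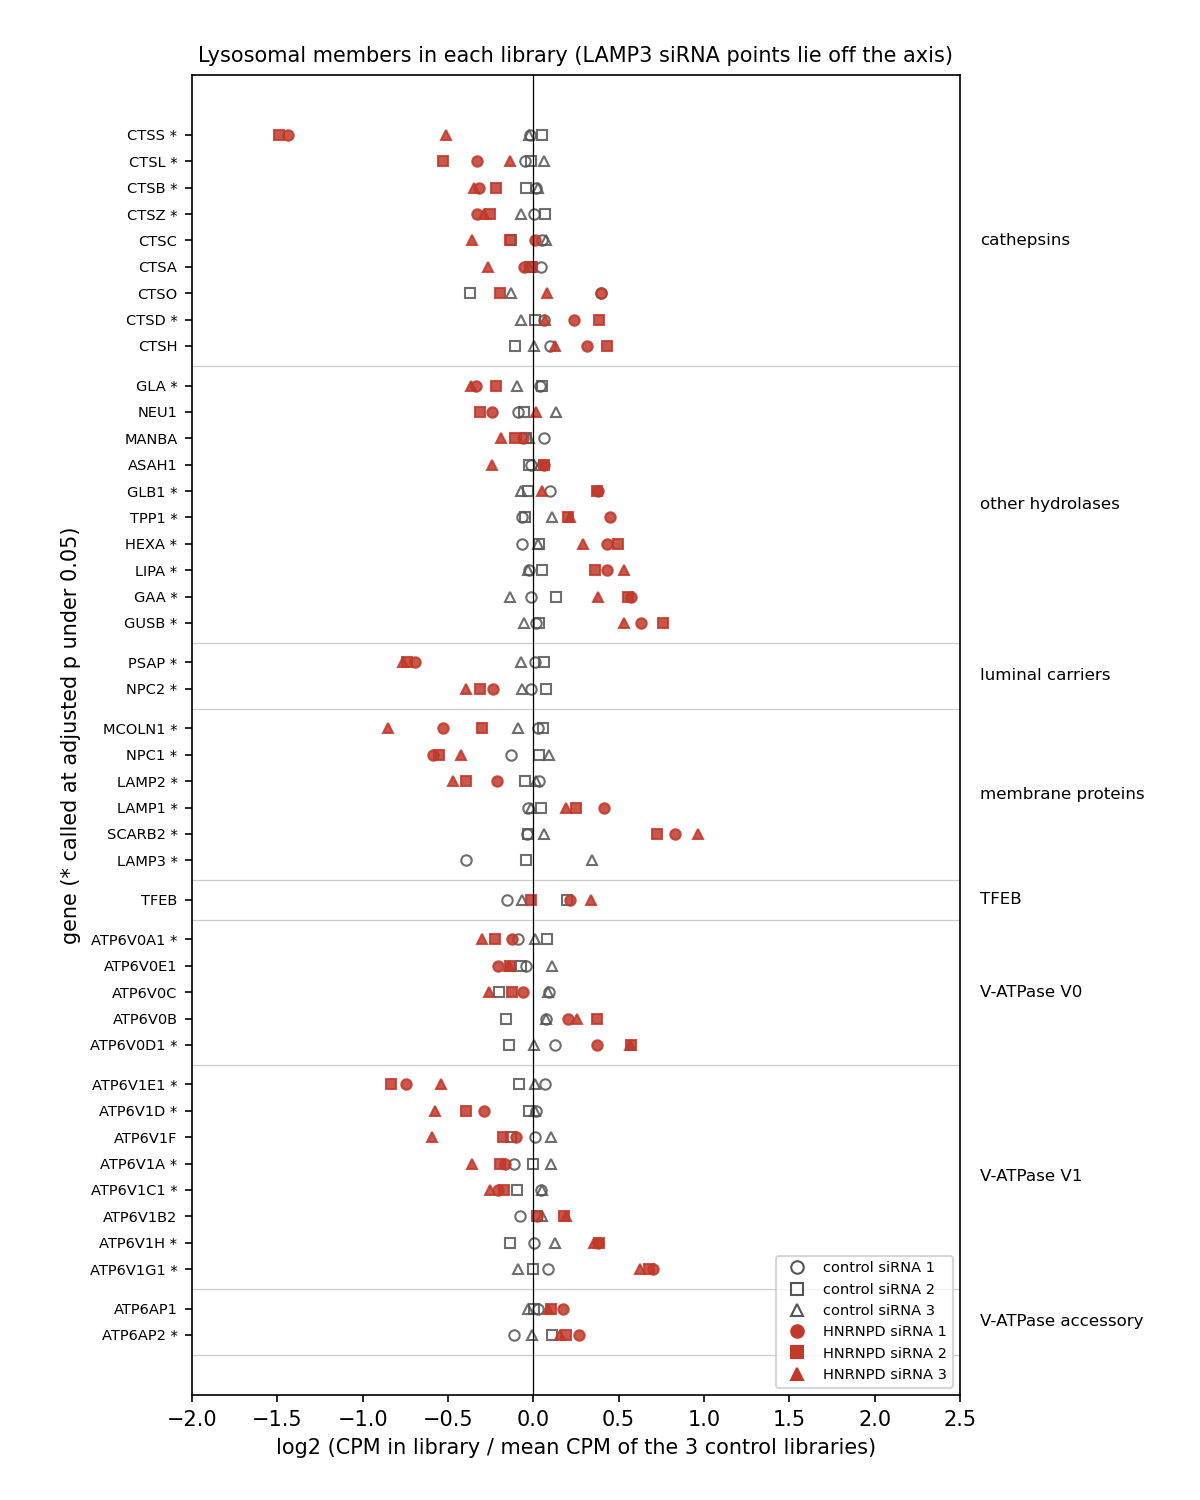
Level of each member in each library as log2 of the ratio to the mean of the 3 control libraries (x axis), by gene and class (y axis), with open grey symbols for control and filled red symbols for HNRNPD siRNA. Red symbols of each class of 5 or more genes lie on both sides of 0. The LAMP3 points of HNRNPD siRNA (20.47 to 49.41 CPM) lie off the axis.

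The counts by class are a description, and no difference between classes was tested. Cathepsins had 1 member higher and 4 lower of 9 (median log2 fold change -0.16), other hydrolases 6 higher and 1 lower of 10 (median 0.28), membrane proteins 3 higher and 3 lower of 6 (median -0.03), and the V-ATPase 4 higher and 5 lower of 15 (median -0.15). Beside these classes of 6 to 15 genes stand the 28.4% higher and 27.8% lower of all genes tested, and the 30.1% and 36.1% of the protein-coding genes. Without HNRNPD siRNA replicate 3 the median of the cathepsins was -0.07 and that of the membrane proteins 0.01. Both luminal carriers fell, and TFEB was not called.

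The summed level of the 43 members was 2885, 2922 and 2903 CPM in the control libraries and 2496, 2382 and 2514 CPM in the HNRNPD siRNA libraries, without overlap. The genes CTSL and PSAP made up 55.1%, 56.1% and 55% of this sum in control and 45.1%, 43.3% and 47% after HNRNPD siRNA. The other 41 members summed to 1296, 1284 and 1306 CPM in control and to 1370, 1350 and 1331 CPM after HNRNPD siRNA. The sum of all members was thus lower and the sum without CTSL and PSAP was higher in each HNRNPD siRNA library than in any control library.

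**Figure D2:**
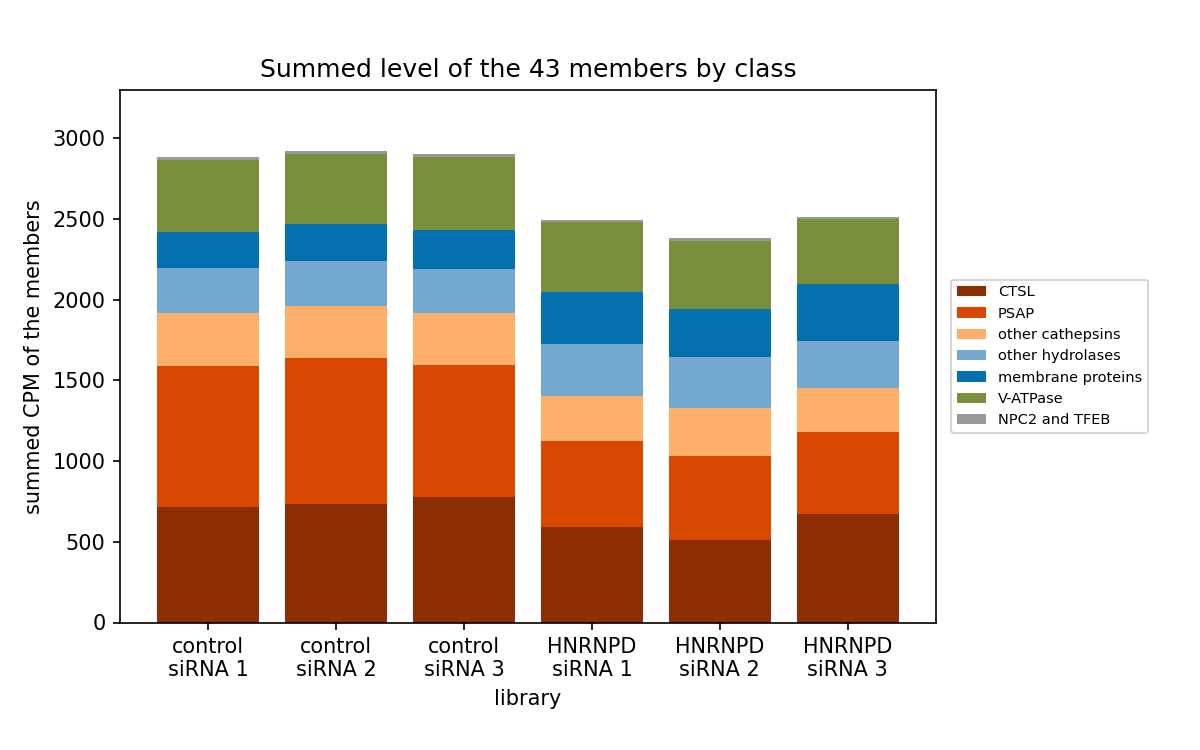
Summed CPM of the 43 members (y axis) in each of the 6 libraries (x axis), stacked by class with CTSL and PSAP apart. The full bars stand at 2885 to 2922 CPM in control and 2382 to 2514 CPM in HNRNPD siRNA libraries, and the CTSL and PSAP segments hold 55% to 56.1% and 43.3% to 47% of them.

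Of the 9 cathepsins, 4 were called lower, 1 higher and 4 were not called, beside 28.4% higher and 27.8% lower of all genes tested. CTSL, a cysteine endoprotease that is the most abundant member per base of gene length, was at 718, 734.8 and 775.2 CPM in control and at 591.4, 514 and 674.4 CPM after HNRNPD siRNA. Its highest HNRNPD siRNA library, replicate 3, lay below all 3 controls, and the fall was 1.25-fold (log2 fold change -0.32, SE 0.08, edgeR adjusted p = 0.0028). The gene lies at chr9:87725519-87731393 (GRCh38, plus strand). CTSS, a cysteine protease known for cutting the invariant chain in antigen-presenting cells and inducible by interferon gamma, was at 13.01, 13.65 and 12.95 CPM in control and at 4.865, 4.701 and 9.267 CPM after HNRNPD siRNA. It fell 2.10-fold (log2 fold change -1.07, SE 0.26, edgeR adjusted p = 0.0132), with replicate 3 nearly at 2 times the level of the other two HNRNPD siRNA libraries. Without that replicate the log2 fold change was -1.47, and without replicate 2 it was -0.89. CTSS lies at chr1:150730196-150765957 on the minus strand.

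CTSB, an abundant cysteine protease with endo- and exopeptidase activity, stood at 136.6, 131.5 and 138 CPM in control and at 108.5, 116.3 and 106.3 CPM after HNRNPD siRNA. CTSZ, a carboxypeptidase, stood at 86.68, 90.42 and 82.1 CPM in control and at 68.85, 72.4 and 70.59 CPM. For both, every HNRNPD siRNA library was below every control, with falls of 1.23-fold and 1.22-fold (log2 fold changes -0.29 and -0.29, SE 0.06 each, edgeR adjusted p = 0.000315 and 0.000454). CTSD, the main aspartic protease of the lysosome, was the only cathepsin called higher, at 38.58 and 45.44 CPM on average (log2 fold change 0.24, SE 0.08, edgeR adjusted p = 0.0139). It was no longer called when control replicate 3 was left out (adjusted p = 0.0925), nor without HNRNPD siRNA replicate 2 (0.111). RP11-295K3.1 on the same strand overlaps CTSD over a fraction of 0.527 of the exonic bases, so the counts may not all be those of CTSD.

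The remaining 4 cathepsins were not called. CTSA, a serine carboxypeptidase that also shields GLB1 and NEU1 in a complex, had a log2 fold change of -0.11 (95% interval -0.27 to 0.06) and overlaps NEURL2 on the opposite strand (fraction of exonic bases 0.285). CTSC, which activates serine proteases of granules, had -0.16 (-0.36 to 0.05) and was called without HNRNPD siRNA replicate 1 (adjusted p = 0.0376). CTSH, an aminopeptidase, was at 4.758 and 5.841 CPM (0.30, interval 0.02 to 0.57, adjusted p = 0.06) and was called without HNRNPD siRNA replicate 3 (adjusted p = 0.0226). It was also called when 1 CPM was required in 3 libraries (0.0385) and when every count was divided by 2 (0.0442). CTSO was at 1.751 and 1.895 CPM, and its log2 fold change of 0.11 changed sign to -0.06 without control replicate 2 or HNRNPD siRNA replicate 1.

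Of the 10 other hydrolases, 6 were called higher, 1 lower and 3 were not called, beside 28.4% higher and 27.8% lower of all genes tested. GUSB, the beta-glucuronidase of glycosaminoglycan breakdown, was at 15.49, 15.66 and 14.76 CPM in control and at 23.72, 25.94 and 22.13 CPM after HNRNPD siRNA. It rose 1.56-fold (log2 fold change 0.65, SE 0.08, edgeR adjusted p = 1.89e-06), the largest rise of this class, and the groups were far apart. GUSB lies at chr7:65960684-65982314 (minus strand). GAA, the acid alpha-glucosidase that degrades glycogen, was at 22.73, 25.18 and 20.86 CPM in control and at 34.11, 33.62 and 29.83 CPM after HNRNPD siRNA. It rose 1.42-fold (log2 fold change 0.50, SE 0.08, edgeR adjusted p = 3.7e-05) and is 1 of the promoters with 2 CLEAR cores shown above.

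HEXA, the alpha subunit of beta-hexosaminidase, was at 38.78, 41.66 and 41.51 CPM in control and at 54.83, 57.24 and 49.73 CPM after HNRNPD siRNA. LIPA, the lysosomal acid lipase that frees cholesterol and fatty acids from lipoproteins, was at 17.47, 18.39 and 17.4 CPM in control and at 23.97, 22.76 and 25.65 CPM. Neither gene's groups overlapped, and the rises were 1.33-fold and 1.36-fold (edgeR adjusted p = 5.22e-05 and 7.68e-05). HEXA overlaps the antisense RP11-106M3.3 (fraction of exonic bases 0.163). The peptidase TPP1 rose 1.23-fold (log2 fold change 0.29, SE 0.08). The beta-galactosidase GLB1 was called higher (log2 fold change 0.28, SE 0.09, edgeR adjusted p = 0.0184), but its groups overlapped, since HNRNPD siRNA replicate 3 at 16.21 CPM lay below control replicate 1 at 16.72 CPM. Leaving out 1 library ended its call in 4 cases, namely control replicates 2 (adjusted p = 0.0743) and 3 (0.0942) and HNRNPD siRNA replicates 1 (0.0901) and 2 (0.0897).

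GLA, the alpha-galactosidase A that cleaves globotriaosylceramide, was the only one of these 10 hydrolases called lower. It was at 46.79, 47.03 and 42.65 CPM in control and at 36.11, 39.09 and 35.35 CPM after HNRNPD siRNA, a 1.23-fold fall without overlap (log2 fold change -0.30, SE 0.07, edgeR adjusted p = 0.000942). The beta-mannosidase MANBA (log2 fold change -0.12, 95% interval -0.27 to 0.03), the sialidase NEU1 (-0.17, -0.41 to 0.06) and the acid ceramidase ASAH1 (-0.03, -0.19 to 0.13) were not called. Without HNRNPD siRNA replicate 3, NEU1 was called lower (-0.29, adjusted p = 0.0323) and the value of ASAH1 changed sign to 0.06.

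Both carriers of the lumen fell. PSAP encodes prosaposin, which is cut into the saposins that present sphingolipids to hydrolases such as GLA, GALC and ASAH1. It was at 870.7, 902.9 and 821 CPM in control and at 534.5, 518.2 and 508.4 CPM after HNRNPD siRNA, with little spread inside either group. The fall was 1.66-fold (log2 fold change -0.73, SE 0.06, edgeR adjusted p = 6.54e-09), and the log2 value ran from -0.78 to -0.71 with each library left out in turn. PSAP lies at chr10:71816298-71851375 (minus strand) and shares no exonic base with another gene of the table. NPC2, the soluble protein that hands cholesterol to NPC1, was at 14.39, 15.27 and 13.85 CPM in control and at 12.29, 11.69 and 11.04 CPM after HNRNPD siRNA (log2 fold change -0.31, SE 0.09, edgeR adjusted p = 0.00561), also without overlap.

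**Figure D3:**
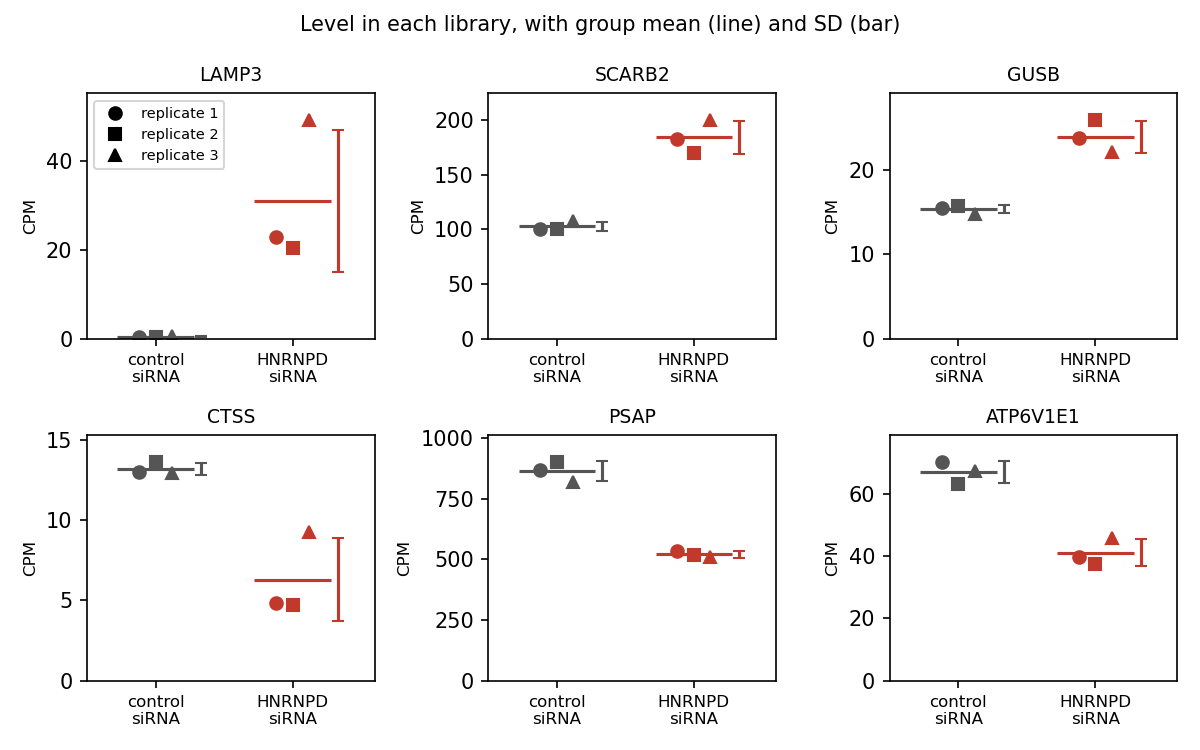
CPM (y axis, from 0) of 6 members in each library, with control siRNA in grey and HNRNPD siRNA in red, a line at the mean of each group and a bar of 1 SD (n = 3). LAMP3, SCARB2 and GUSB were higher and CTSS, PSAP and ATP6V1E1 lower after HNRNPD siRNA, and replicate 3 stands apart for LAMP3 and CTSS.

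All 6 membrane proteins were called, 3 in each direction, where 56.1% of all genes and 66.2% of the protein-coding genes were called either way. LAMP3, a LAMP family member of mature dendritic cells and a known interferon-induced gene, had the largest change of all 43 members. It was at 0.3287, 0.4201 and 0.5483 CPM in control and at 23.03, 20.47 and 49.41 CPM after HNRNPD siRNA, a fitted 71.3-fold rise (log2 fold change 6.15, SE 0.66, edgeR adjusted p = 0.00151). Every HNRNPD siRNA library was far above every control, and replicate 3 was more than 2 times as high as either of the other two. Without replicate 3 the log2 fold change was 5.64. LAMP3 lies at chr3:183122213-183163839 (minus strand).

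LAMP1 and LAMP2, the abundant paralogs that coat the lysosomal membrane, moved apart. LAMP1 was at 27.21, 28.78 and 27.56 CPM in control and at 37.16, 33.07 and 31.8 CPM after HNRNPD siRNA (log2 fold change 0.29, SE 0.07, edgeR adjusted p = 0.00266). LAMP2, whose splice form LAMP2A serves chaperone-mediated autophagy, was at 50.26, 47.45 and 49.54 CPM in control and at 42.35, 37.39 and 35.37 CPM (log2 fold change -0.36, SE 0.07, edgeR adjusted p = 0.000341). Per kilobase of gene length, LAMP1 stood at 0.521, 0.584 and 0.536 of LAMP2 in the control libraries and at 0.845, 0.852 and 0.866 in the HNRNPD siRNA libraries. LAMP1 is also 1 of the promoters with 2 CLEAR cores.

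SCARB2 encodes LIMP-2, an abundant glycoprotein of the lysosomal membrane. It was at 100.3, 100.8 and 107.5 CPM in control and at 182.8, 169.8 and 200.5 CPM after HNRNPD siRNA, a 1.79-fold rise (log2 fold change 0.84, SE 0.07, edgeR adjusted p = 4.13e-09) at chr4:76158737-76213893 (minus strand). NPC1, the membrane cholesterol exporter, was at 39.42, 44.09 and 45.94 CPM in control and at 28.69, 29.47 and 32.2 CPM after HNRNPD siRNA, a 1.43-fold fall (edgeR adjusted p = 9.05e-06). Both steps of the NPC2 to NPC1 cholesterol route were thus lower in mRNA.

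MCOLN1, the calcium channel TRPML1 whose opening activates TFEB, was at 7.395, 7.562 and 6.842 CPM in control and at 5.03, 5.894 and 4.022 CPM after HNRNPD siRNA. It fell 1.46-fold (log2 fold change -0.54, SE 0.14, edgeR adjusted p = 0.00227), and its promoter holds 2 CLEAR cores. TFEB itself was of low level, at 2.489, 3.174 and 2.646 CPM in control and 3.216, 2.744 and 3.497 CPM after HNRNPD siRNA, with overlapping groups. It was not called (log2 fold change 0.18, 95% interval -0.17 to 0.54). Of the 6 members with a CLEAR core, 4 were called higher, 1 lower and 1 was not called (median log2 fold change 0.40, range -0.54 to 0.67). Of the 23 with a promoter and no CLEAR core, 7 were higher, 8 lower and 8 not called (median -0.15, range -0.70 to 0.84). Members without a matched promoter, among them LAMP3, CTSS and PSAP, were not searched and are in neither set. These are counts over few genes, and the difference between them was not tested. For comparison, 28.4% of all 20465 genes had a higher call and 27.8% a lower one.

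**Figure D4:**
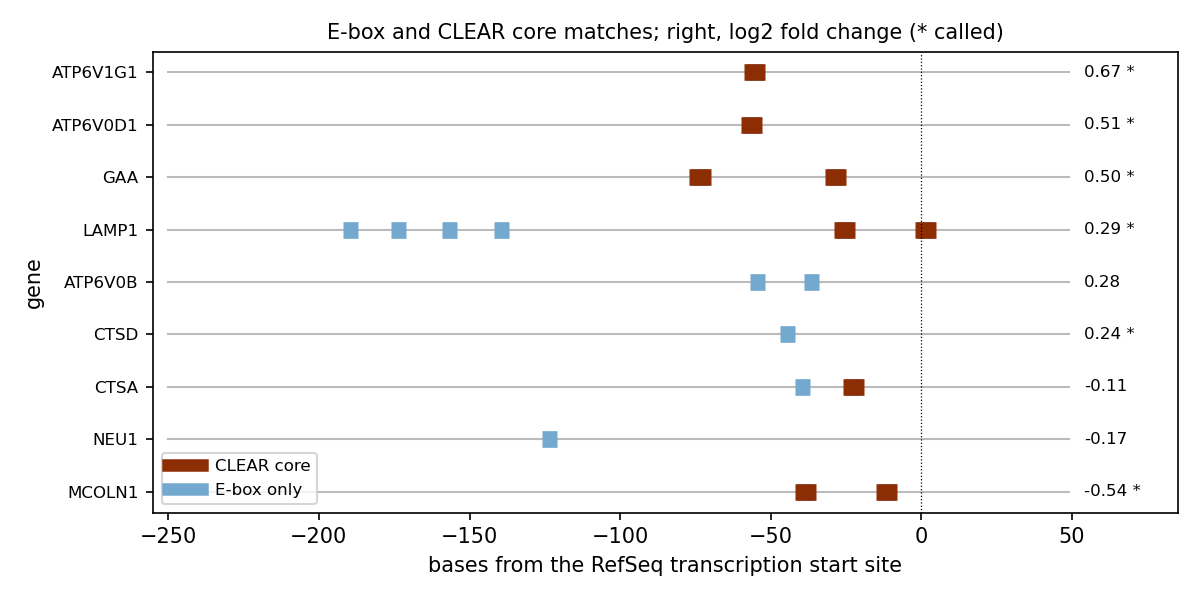
Places of CLEAR cores (dark) and other E-boxes (light) in the promoters of the 9 members that hold one, by distance in bases from the RefSeq start site (x axis), with the fitted log2 fold change at the right. Genes are ordered from ATP6V1G1 at 0.67 to MCOLN1 at -0.54, and the CLEAR cores of 6 genes begin between 77 and 2 bases before the start.

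The V-ATPase had called subunits in both directions, as calls in both directions were common among all genes (28.4% higher and 27.8% lower). In the V1 sector, 2 of 8 subunits were higher and 4 lower, in the V0 sector 1 of 5 was higher and 1 lower, and of the 2 accessory proteins 1 was higher. The largest changes in opposite directions were of ATP6V1E1 and ATP6V1G1, subunits E and G, which pair to form the peripheral stalks that hold V1 to V0. ATP6V1E1 was at 70.43, 63.32 and 67.37 CPM in control and at 39.91, 37.61 and 46.04 CPM after HNRNPD siRNA, a 1.63-fold fall (log2 fold change -0.70, SE 0.07, edgeR adjusted p = 2.65e-07). ATP6V1G1 was at 40.61, 38.28 and 35.88 CPM in control and at 62.28, 61.18 and 58.93 CPM, a 1.59-fold rise (log2 fold change 0.67, SE 0.07, edgeR adjusted p = 8.07e-08). Per kilobase, the level of ATP6V1G1 over that of ATP6V1E1 was 1.42, 1.49 and 1.31 in control and 3.84, 4 and 3.15 after HNRNPD siRNA. The tested paralog of each moved opposite to it: ATP6V1E2 rose from 6.259 to 7.99 CPM (log2 fold change 0.35, edgeR adjusted p = 0.0102, and 0.0586 without control replicate 2) and ATP6V1G2 fell from 7.698 to 4.313 CPM (-0.84, 2.68e-05). ATP6V1E1 lies at chr22:17592136-17628818 (minus strand) and ATP6V1G1 at chr9:114587746-114598373 (plus strand).

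ATP6V1D, a subunit of the rotating central shaft, was at 35.97, 34.99 and 35.88 CPM in control and at 29.16, 27.11 and 23.91 CPM after HNRNPD siRNA (log2 fold change -0.41, SE 0.08, edgeR adjusted p = 0.000135). ATP6V1H, a regulatory subunit, was at 8.029, 7.282 and 8.749 CPM in control and at 10.44, 10.48 and 10.24 CPM (log2 fold change 0.37, SE 0.10, edgeR adjusted p = 0.00456). Neither pair of groups overlapped. The catalytic subunit ATP6V1A (log2 fold change -0.24) and the subunit ATP6V1C1 (-0.21) were called lower but lost the call with single libraries left out. For ATP6V1A these were control replicate 2 (adjusted p = 0.0574) or 3 (0.121) and HNRNPD siRNA replicate 3 (0.0667), and for ATP6V1C1 control replicate 1 (0.0584) or 3 (0.0646). ATP6V1B2, the other subunit of the ATPase head, had 0.13 (95% interval -0.02 to 0.28) and was not called. ATP6V1F, of the central shaft, had -0.28 (-0.56 to 0.00) and was not called, with HNRNPD siRNA replicate 3 lowest at 47.14 CPM. It was called lower without HNRNPD siRNA replicate 1 (adjusted p = 0.017) or 3 (0.0473), by DESeq2 (0.0183), by limma-voom (0.0284) and with no filter (8.35e-05), and it overlaps the antisense gene KCP (fraction of exonic bases 0.237).

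In the V0 sector, ATP6V0D1, which couples the shaft to the proton ring, was at 6.949, 5.765 and 6.389 CPM in control and at 8.245, 9.473 and 9.442 CPM after HNRNPD siRNA. It rose 1.42-fold (log2 fold change 0.51, SE 0.11, edgeR adjusted p = 0.000868), and its promoter holds 1 CLEAR core, as does that of ATP6V1G1. ATP6V0A1, which forms the proton channel with the ring, was at 45.66, 51.4 and 48.99 CPM in control and at 44.66, 41.66 and 39.49 CPM (log2 fold change -0.22, SE 0.07, edgeR adjusted p = 0.0126). The call of ATP6V0A1 ended when control replicate 2 was left out (adjusted p = 0.0671). The proteolipids of the ring were not called. ATP6V0B was at 2.77, 2.357 and 2.765 CPM in control and at 3.023, 3.412 and 3.147 CPM after HNRNPD siRNA (log2 fold change 0.28, 95% interval -0.05 to 0.62), while ATP6V0C had -0.15 (-0.34 to 0.05) and was called without control replicate 2 (adjusted p = 0.0415). RP11-20I23.1 on the same strand overlaps ATP6V0C over a fraction of 0.721 of the exonic bases. ATP6V0E1 was at 9.884, 9.686 and 11.01 CPM in control and at 8.822, 9.258 and 9.217 CPM (-0.16, -0.37 to 0.04), not called though its groups did not overlap.

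The accessory proteins assist assembly of the pump. ATP6AP1 was at 34.51, 34.05 and 33.11 CPM in control and at 38.29, 36.48 and 35.99 CPM after HNRNPD siRNA (log2 fold change 0.12, SE 0.07), and was called only with at least 1 CPM in 3 libraries (adjusted p = 0.0499). ATP6AP2, also known as the prorenin receptor, was at 23.52, 27.43 and 25.22 CPM in control and at 30.53, 29.02 and 28.35 CPM. It was called higher (log2 fold change 0.21, SE 0.07, edgeR adjusted p = 0.0253). It was not called without control replicates 1 (adjusted p = 0.16) and 3 (0.093), without HNRNPD siRNA replicate 1 (0.103) and with no filter on low counts (0.0627).

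**Figure D5:**
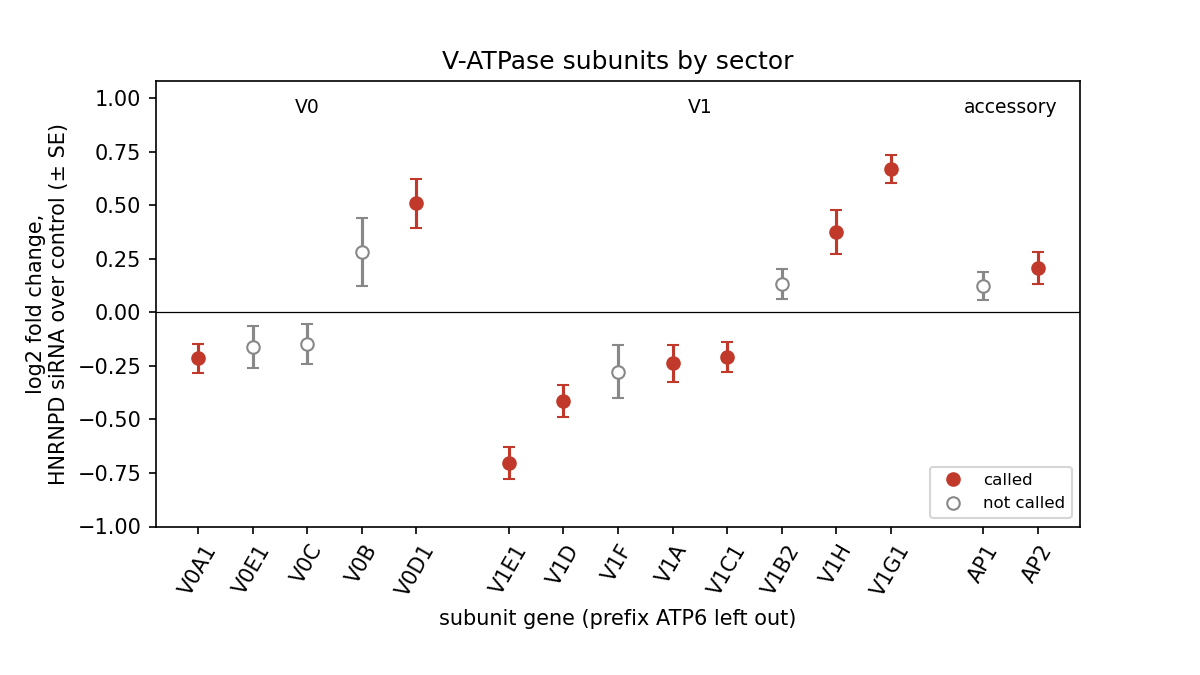
Fitted log2 fold change (HNRNPD siRNA over control, y axis) with 1 SE for each V-ATPase gene (x axis), by sector, with filled red points for called and open points for uncalled genes. Each sector holds points on both sides of 0, from ATP6V1E1 at -0.70 to ATP6V1G1 at 0.67 in V1, apart from the accessory proteins at 0.12 and 0.21.

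Per kilobase of gene length, which allows levels to be set beside each other across genes, the most abundant members in control were CTSL at 313.9 ± 12.4 CPM per kilobase (SD, n = 3), PSAP at 267 ± 12.8, ATP6V1F at 90.01 ± 7.3, CTSZ at 42.4 ± 2.04 and ATP6V1G1 at 29.3 ± 1.81. After HNRNPD siRNA the levels per kilobase were 250.8 ± 33.9 for CTSL, 160.7 ± 4.07 for PSAP, 74.3 ± 12.8 for ATP6V1F, 46.6 ± 1.31 for ATP6V1G1 and 34.7 ± 0.87 for CTSZ, so that ATP6V1G1 and CTSZ changed places. The ratio of CTSL to PSAP per kilobase was 1.13, 1.11 and 1.29 in control and 1.51, 1.36 and 1.82 after HNRNPD siRNA. Gene length here is the summed length of all annotated exons, which exceeds that of any single transcript. It ran from 789 bases for ATP6V1F to 15378 bases for ASAH1. The excess can differ between genes and lowers the level per kilobase, so this order is approximate. The spread among HNRNPD siRNA libraries was not of 1 kind. The highest of the 3 was replicate 1 for 18 members, replicate 2 for 15 and replicate 3 for 10, the last including LAMP3, CTSS, CTSL and SCARB2.

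Further lysosomal genes were taken from 6 lists, of which 69 of 77 genes passed the filter. Of these, 25 were called higher and 18 lower (median log2 fold change 0.13), against 28.4% and 27.8% of all genes tested. Of 30 other hydrolases and cofactors, 9 were higher and 4 lower. The palmitoyl thioesterase PPT1 (11.84 and 21.16 CPM) and the heparan-sulfate glycosidase NAGLU (4.623 and 8.862 CPM) rose 1.79-fold and 1.92-fold. NAGLU overlaps RP11-400F19.8 on the same strand (fraction of exonic bases 0.126). The iduronate sulfatase IDS fell 2.27-fold, from 59.64 to 26.33 CPM, and overlaps AF011889.5 (fraction of exonic bases 0.174). Of 14 other membrane proteins tested, 5 were higher and 5 lower. OSTM1, a partner of the chloride transporter CLCN7, fell 2.18-fold, LAPTM4B fell 2.37-fold and MFSD8 rose 1.53-fold. CD68, a macrosialin also used as a macrophage marker and named after its values were seen, had the largest change of this list, at 17.65, 17.3 and 19.43 CPM in control and 79.29, 72.73 and 151.9 CPM after HNRNPD siRNA (log2 fold change 2.48, SE 0.37, edgeR adjusted p = 0.00485). RP11-186B7.4 on the same strand overlaps it over a fraction of 0.858 of the exonic bases, so these counts cannot be credited to CD68 alone.

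Genes that deliver enzymes to the lysosome also moved in both directions, with 3 of 6 higher and 2 lower. Calls in both directions were common among all genes tested (28.4% higher and 27.8% lower). IGF2R, the large mannose 6-phosphate receptor, was at 220.1, 229.6 and 232.3 CPM in control and at 393, 400.2 and 351.8 CPM after HNRNPD siRNA, a 1.68-fold rise (edgeR adjusted p = 8.84e-09). GNPTAB, which makes the mannose 6-phosphate tag, fell 1.44-fold, and SORT1, the sortilin receptor that also carries prosaposin, fell 1.72-fold. Of 7 other V-ATPase subunits tested, 3 were higher and 3 lower, with ATP6V0A2 (log2 fold change -0.29), ATP6V0E2 (-0.99) and ATP6V1G2 (-0.84) among those lower. For ATP6V0E2 and ATP6V1G2, fractions of 0.259 and 0.231 of the exonic bases lie in other genes too. Of the 3 cystatins tested, which inhibit cysteine cathepsins, CSTB fell 1.84-fold, from 17.32 to 9.394 CPM, and the other two were not called.

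Among 9 relatives and regulators of TFEB, 5 were higher and 3 lower, beside 28.4% higher and 27.8% lower of all genes tested. RRAGA, a Rag GTPase that recruits mTORC1 and TFEB to the lysosome, was at 16.72, 15.92 and 17.55 CPM in control and at 5.222, 4.963 and 5.695 CPM after HNRNPD siRNA, a 3.16-fold fall (log2 fold change -1.66, SE 0.10, edgeR adjusted p = 1.08e-10). Its paralog RRAGB rose 1.83-fold, from 6.404 to 11.74 CPM, and FNIP1, a partner of the Rag regulator folliculin, rose 1.47-fold. The TFEB paralogs TFE3 (33.03 and 27.54 CPM) and MITF (13.09 and 9.696 CPM), named after their values were seen, fell by 0.26 and 0.43 on the log2 scale (edgeR adjusted p = 0.00694 and 0.00242).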

How the data were processed

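Per the labels' protocols, Trizol RNA was made into libraries with an Illumina TruSeq RNA kit. The authors deposited 1 table of whole-number read counts per gene, used here as deposited. The submitters' processing notes name Bowtie 0.12.2 and list GRCh38 and mm8 as builds, without roles. The sources used here give no counting program, strand setting or treatment of reads that match several places. Gene lengths, used for levels per kilobase, are as the authors deposited them. Starts and ends of 39 of 43 members equal those of GENCODE 29 on GRCh38, and 6 members share a fraction of at least 0.1 of their exonic bases with another gene. Among counts of 1 to 20, 66.2% to 69.5% per library were even, so 1 sequenced fragment may often give more than 1 count.

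The 2 groups were compared with edgeR 4.0.16 (R 4.3.3) by its quasi-likelihood test with robust estimation, TMM scaling, filterByExpr and group as the only term. Adjusted p-values are Benjamini-Hochberg over 20465 genes, and a gene is called under 0.05. Standard errors are the absolute log2 fold change over the square root of F, and errors of means are SDs over 3 libraries. The fit was tested on simulated data with far fewer changed genes than here and no fragment counted more than once. That setting differs from these data, so it does not check the error rates or the scaling here. No replicates were near-identical, with 4.84 to 17.83 for chi-square over its degrees of freedom. Same-numbered libraries did not deviate together (correlations 0.079, 0.031 and -0.008). Alternatives were DESeq2 1.42.0, limma 3.58.1, other scalings and filters, a replicate block, counts divided by 2, no mitochondrial genes and each library left out. Members and lists were chosen with earlier results of these data known. Values in every library are given for the 4 members of each larger class with the smallest p, for classes of 1 or 2 members and for members changed at least 2-fold, with 3 others (GLA, LAMP1, MCOLN1) added after their values were seen, and for each further list the 3 called genes with the smallest p are named. ATP6V1E2, CD68, TFE3 and MITF were added in the same way.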

Additional observations from a re-analysis of the deposited data

How the results depend on the processing

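Under the 15 alternatives the members called ran from 11 to 16 higher and from 13 to 17 lower, each within 1.5 times the 14 and 15 reported, and all genes called ran from 10293 to 11659 against 11490. Of the 43 members, 29 kept direction and call under every alternative, as did 19 of 20 further genes named with values, the exception being ATP6V1E2 without control replicate 2 (adjusted p = 0.0586). The direction of 2 members changed with a library left out: CTSO ran from -0.06 to 0.35 and ASAH1 from -0.09 to 0.06 in log2 fold change. With each library left out in turn, the median log2 fold change ran from -0.25 to -0.07 for cathepsins and from -0.12 to 0.01 for membrane proteins, the extremes being without HNRNPD siRNA replicate 1 and without replicate 3, and the cause was not tested. With the replicate block, 14 members were higher and 15 lower and 11529 genes were called, and the labels do not say that equal numbers mark a shared culture. DESeq2 size factors and library totals moved the median log2 fold change of all genes by -0.006 and 0.019. With counts divided by 2, LAMP3, CTSO, TFEB and ATP6V0B, the members of the lowest levels in control, had the same calls. The next lowest, CTSH at 4.758 CPM in control, became called higher (log2 fold change 0.31, edgeR adjusted p = 0.0442).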
